A study of Xenopus laevis with 8 samples.

Results

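The genes of the multiciliated cell programme were followed in anterior endoderm of Xenopus laevis embryos injected with an inducible form of the proneural transcription factor Neurogenin 3, with and without the inducing hormone. They were taken by platform gene symbol, as every probe set (a group of array probes read as 1 value) whose symbol, without its homeolog suffix, was mcidas, ccno, foxj1, myb, e2f4, e2f5, rfx2 or rfx3. This gave 8 named genes out of 11303 on the array, with 1 probe set each out of 32539 tested, and 6 of the 8 symbols. They were mcidas.S, e2f4.S, ccno.L, ccno.S, myb.S, foxj1.L, foxj1.S and rfx2.S. The suffixes .L and .S mark the homeologs, the paired gene copies of this species. No probe set with 1 symbol carried e2f5 or rfx3, and those genes are not analysed here. The 279 probe sets with several symbols were not searched.

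All embryos of both groups carried mRNA for Ngn3-GR, a fusion of Neurogenin 3 with a glucocorticoid receptor domain, injected at the 8-cell stage into 2 dorsal vegetal blastomeres. In the DEX group (4 arrays) embryos were given 10 µM dexamethasone at Nieuwkoop and Faber (NF) stage 12 for 4 hours, which activates such a fusion. The no_DEX group (4 arrays) received none, and both were dissected at NF stage 15. By their labels the arrays of each group are biological replicates 1 to 4, and the meaning of a number (a clutch, a day) is not given. The p-values therefore set each change against the spread between these arrays only. No group with dexamethasone and without Ngn3-GR was analysed here, so the effects of the hormone and of the fusion cannot be told apart. No probe set carried the symbol neurog3, which leaves the injected gene unchecked.

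A multiciliated cell carries many motile cilia on its surface, each growing from its own centriole-derived basal body. In the Xenopus embryo such cells are known from the larval skin, where Notch signalling limits their number. Multicilin, the product of mcidas, is a Geminin-related coiled-coil protein that binds E2f4 or E2f5 and switches on genes for making centrioles, together with myb and foxj1. Foxj1 and the Rfx factors then turn on the genes of the moving axoneme.

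Signals are log2 values as the authors normalized them, and changes are log2 of DEX over no_DEX. Array medians lay between 6.02 and 6.12. Control probe sets for artificial tags gave a background of 2.38 to 4.40, and 7 of the 8 member probe sets had a mean above it. Arrays with the same replicate number resembled each other across the whole array, so they were treated as pairs. The test of each member is given without and with the replicate number as a block. For genes outside the members most adjusted p-values are given with the block only. Without the block 0 probe sets of the gene lists below were called. Without the block a change is set against the spread of arrays within a group, and with it against the spread of the differences within pairs. A probe set was called at an adjusted p under 0.05 by limma. Without the block 2 probe sets (0.00615%) were called, and with it 180 (0.553%).

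The dissected tissue gave signal for both endoderm and epidermal markers. Over 18 endoderm probe sets above background the median signal was 8.86 to 9.28 with dexamethasone and 8.23 to 9.25 without. The endoderm gene sox17a.L ranged from 9.30 to 10.57 over the 8 arrays. The epidermal keratin gene krt70.S ranged from 14.06 to 14.18, and itln1.L, which encodes an intelectin of skin goblet cells, from 13.42 to 13.94. The ionocyte regulator gene foxi1.L ranged from 10.30 to 10.72. These epidermal genes were looked up after their values were seen, and their part in the results below was not tested. Over 20 epidermal probe sets above background the median signal was 8.14 to 8.50 with dexamethasone and 8.03 to 8.22 without, while tph1.L, a gene of serotonin-making cells, lay within the background.

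Of the 8 member probe sets, 0 passed in either limma fit, while 4 had an unadjusted p under 0.05 in both. The 4 were mcidas.S, ccno.L, ccno.S and rfx2.S, all with higher signal in DEX. Over all probe sets 2.19% lay higher at that unadjusted p without the block and 6.40% with it. These 4 were also higher in 4 of 4 pairs, as were 10.9% of all probe sets. For mcidas.S, ccno.S and rfx2.S the lowest DEX array lay above the highest no_DEX array, which held for 1.58% of all probe sets. For rfx2.S both this and the count of pairs rested on a gap of 0.0003 between the arrays of replicate 3. The other 4, e2f4.S, myb.S, foxj1.L and foxj1.S, differed by at most 0.13 and had groups that overlapped. The change was above 0 for 7 of the 8, against 50.8% of all probe sets. Among the 7 were myb.S, whose signal lay within the background, and foxj1.L, at 0.0016 and at −0.0037 with arrays centred. The median change of the 8 was 0.22, against 0.0023 over all probe sets. Members were chosen with earlier results of these data known. The 8 probe sets share arrays and cover 6 symbols, with both homeologs of ccno and of foxj1, so these counts are a description.

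The largest difference among the members was that of mcidas.S. DEX arrays 1 to 4 gave 7.43, 7.28, 7.36 and 7.44. Without dexamethasone it was 6.27, 6.33, 7.09 and 6.72 in the same order. The DEX arrays lay close together, at 7.38 ± 0.07 (SD, n = 4), while the no_DEX arrays were spread, at 6.60 ± 0.38, with replicate 3 the highest of them. The change was 0.77 (SE 0.17), or 1.71-fold, and limma gave an adjusted p of 0.572 without the block and 0.0664 with it. By unadjusted p this probe set ranked 95 of 32539 without the block and 236 with it. It passed under 1 of 20 alternative settings, the block fitted with a variance trend and robust estimation (adjusted p = 0.0400). With the block its change had a 95% interval of 0.46 to 1.09, and the changes in pairs 1 to 4 were 1.16, 0.94, 0.27 and 0.72. Pair 3 thus held the smallest difference, and it was the pair whose no_DEX array stood highest. The homeolog mcidas.L had no probe set under its symbol.

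The partner gene e2f4.S, whose product works as a repressor in the cell cycle and as an activator beside Multicilin, was level between the groups. DEX arrays 1 to 4 gave 8.27, 8.28, 8.39 and 8.37, and no_DEX arrays 8.47, 8.28, 8.37 and 8.34. Both groups covered much the same range, with the highest array in no_DEX replicate 1. The change was −0.04 (SE 0.08, adjusted p = 1.00, and 0.909 with the block), and its 95% interval with the block ran from −0.22 to 0.15.

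**Figure D1:**
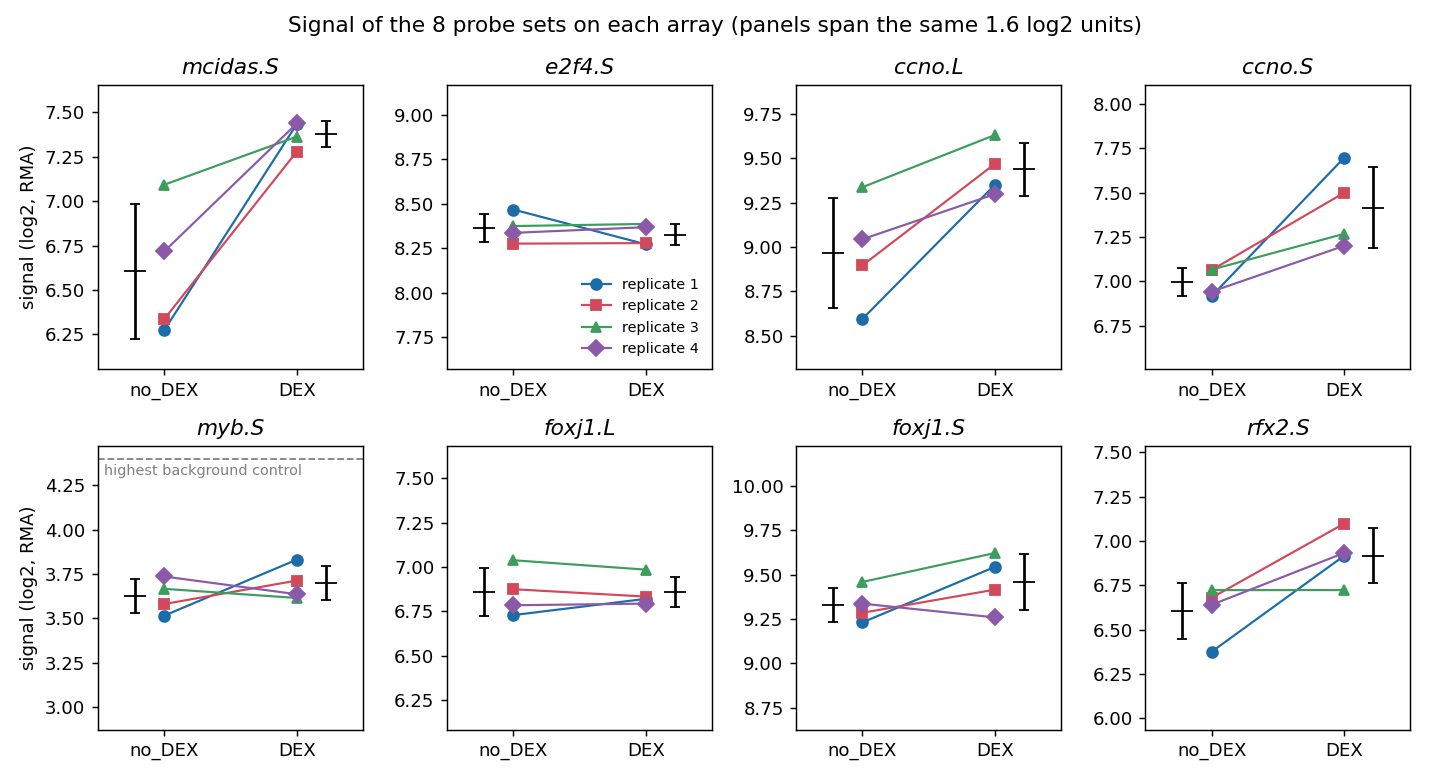
Signal of each of the 8 member probe sets (log2, vertical axis) on every array, with lines joining arrays of one replicate number and black bars for the group mean ± SD (n = 4). The lines of mcidas.S, ccno.L and ccno.S all slope upward toward DEX, those of e2f4.S and foxj1.L are nearly flat, and myb.S lies under the highest background control of 4.40 (dashed).

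Cyclin O, the product of ccno, is needed for the deuterosomes on which multiciliated cells build their centrioles, and in humans its loss leaves airway cells with too few cilia. In the RefSeq gene table of assembly Xenopus_laevis_v10.1, ccno and mcidas are direct neighbours with 0 genes between them on both chromosome 1L and chromosome 1S. Both ccno homeologs had a probe set. None of the 8 member probe sets has a name suffix for probes shared between transcripts, though probe sequences were not compared between homeologs.

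For ccno.L, DEX arrays 1 to 4 gave 9.35, 9.47, 9.63 and 9.30, and no_DEX arrays 8.60, 8.90, 9.34 and 9.04. The groups overlapped only through no_DEX replicate 3, which stood above DEX replicate 4. The means were 9.44 ± 0.15 and 8.97 ± 0.31 (SD, n = 4), a change of 0.47 (SE 0.16) or 1.39-fold. It did not pass (adjusted p = 1.00, and 0.109 with the block, where the 95% interval was 0.23 to 0.71). The changes in pairs 1 to 4 were 0.76, 0.57, 0.29 and 0.25.

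For ccno.S, DEX arrays 1 to 4 gave 7.70, 7.50, 7.27 and 7.20, and no_DEX arrays 6.92, 7.06, 7.07 and 6.94. Every DEX array lay above every no_DEX array, and here the DEX group was the more spread one. The means were 7.42 ± 0.23 and 6.997 ± 0.079 (SD, n = 4), a change of 0.42 (SE 0.12) or 1.34-fold. It did not pass (adjusted p = 0.869, and 0.157 with the block, where the 95% interval was 0.17 to 0.67). The changes in pairs 1 to 4 were 0.78, 0.44, 0.20 and 0.26. In mcidas.S, ccno.L and ccno.S alike, pair 1 held the largest change and pair 2 the next.

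The transcription factor gene myb, which acts early in multiciliated progenitors and also in blood progenitors, was not measurable here. The myb.S probe set gave 3.62 to 3.83 in DEX and 3.52 to 3.74 in no_DEX, all under the highest background control. Its change of 0.07 (adjusted p = 1.00, and 0.815 with the block) therefore says nothing about the gene.

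Foxj1 is the forkhead factor that drives motile cilium genes, also in cells with a single motile cilium such as those of the gastrocoel roof plate, the left-right organizer of the frog. For foxj1.L, DEX arrays 1 to 4 gave 6.82, 6.83, 6.99 and 6.79, and no_DEX arrays 6.73, 6.88, 7.04 and 6.78. The arrays differed more between replicate numbers than between groups, with replicate 3 the highest in both. The change was 0.0016 (SE 0.10, adjusted p = 1.00, and 0.997 with the block), and the 95% interval with the block, −0.17 to 0.18, reaches at most 1.13-fold higher.

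Of its homeolog foxj1.S, DEX arrays 1 to 4 gave 9.54, 9.42, 9.62 and 9.26, and no_DEX arrays 9.23, 9.28, 9.46 and 9.34. It stood higher in 3 of 4 pairs and lower in pair 4, and the groups overlapped. The change was 0.13 (SE 0.10, adjusted p = 1.00, and 0.610 with the block), with a 95% interval of −0.07 to 0.33 under the block. The related forkhead gene foxj1.2.L, which the symbol rule leaves out, differed by 0.04 (adjusted p = 0.931 with the block).

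Rfx2 binds beside Foxj1 at ciliary genes and is needed for cilia in the frog epidermis. For rfx2.S, DEX arrays 1 to 4 gave 6.92, 7.10, 6.72 and 6.93, and no_DEX arrays 6.38, 6.68, 6.72 and 6.64. The groups met at DEX replicate 3 and no_DEX replicate 3, which differed by 0.0003. The change was 0.31 (SE 0.11) or 1.24-fold, and it did not pass (adjusted p = 1.00, and 0.250 with the block, where the 95% interval was 0.08 to 0.55). The changes in pairs 1, 2 and 4 were 0.54, 0.42 and 0.29.

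**Figure D2:**
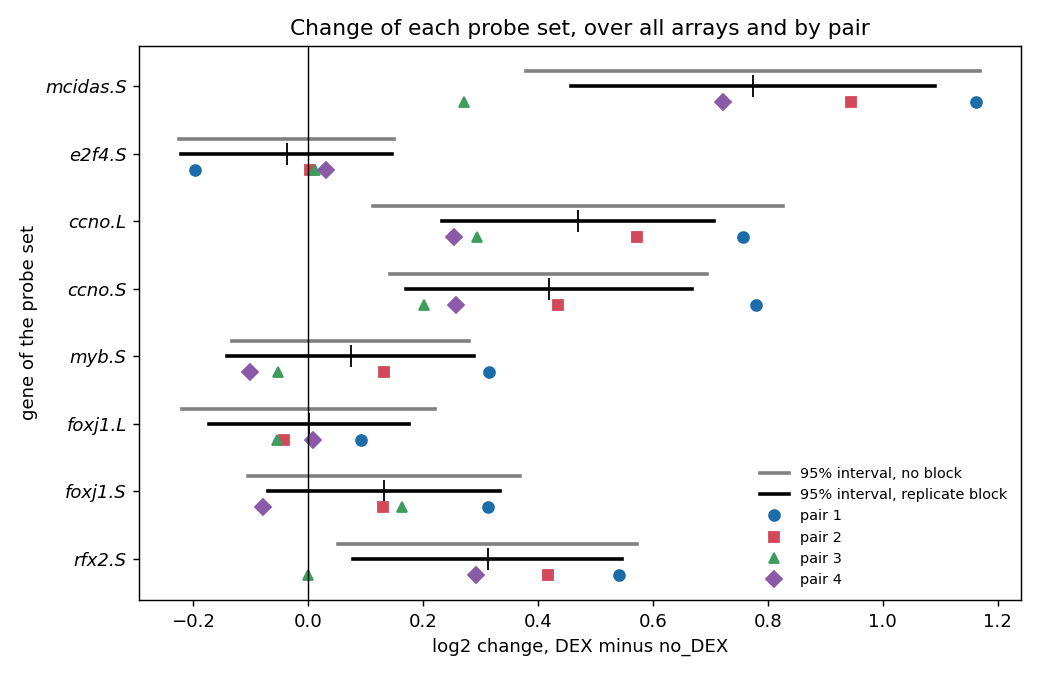
Log2 change of each member probe set (horizontal axis), with the 95% limma interval without the block (grey) and with it (black), and the difference in each pair of arrays (coloured symbols). The intervals of mcidas.S, ccno.L, ccno.S and rfx2.S lie above 0 before adjustment for 32539 tests, and those of e2f4.S, myb.S, foxj1.L and foxj1.S include 0.

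Genes that act beside or below the members were followed in 5 lists. Of 16 probe sets for other regulators of multiciliated cells, 0 passed in either fit, and the median change was −0.0030. At an unadjusted p under 0.05 with the block 2 were lower (12.5%, against 6.11% of all probe sets) and 1 was higher (6.25%, against 6.40%), so the higher count lay at the level of the whole array. The higher one was gmnn.L, which encodes Geminin, the replication inhibitor that also binds Multicilin. It measured 10.38 ± 0.22 with dexamethasone and 9.96 ± 0.19 without, a change of 0.43 (adjusted p = 0.161 with the block). Its homeolog gmnn.S differed by 0.11 (0.723). The lower ones were ccna1.L at −0.49 (0.0903) and ccna1.S at −0.38 (0.146), homeologs for an A-type cyclin of eggs and early embryos. Of the E2f partner gene tfdp1, the probe set for tfdp1.L differed by 0.19 (0.421) and that for tfdp1.S by 0.0054 (0.992).

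Among 34 probe sets for relatives of E2f, Myb and Rfx factors, pocket proteins and cyclins, 0 passed in either fit and the median change was −0.0062. The widest differences were those of the cyclin genes ccng2.S (0.44, adjusted p = 0.125 with the block), ccne2.S (−0.27), ccng1.S (0.27, the widest of 3 probe sets, the others at 0.11 and 0.0052) and ccne1.S (0.26). Among 40 probe sets for centriole amplification and basal bodies 0 passed, and 18 stood above 0 and 22 below, with a median of −0.02. The widest were 1 of 2 probe sets of the basal body gene cby1.S (−0.39, while the dimmer one gave 0.13), 2 of 3 probe sets of the centrin gene cetn1.L (0.34 and 0.28) and the centrosome gene cep192.L (−0.30). In 4 of 4 pairs 7 of the 40 were lower (17.5%, against 10.3% of all probe sets) and 4 higher (against 10.9%). At an unadjusted p under 0.05 with the block 4 were lower (10%, against 6.11% of all) and 2 higher (5%, against 6.40%). Without the block 0 were lower and 0 higher (against 2.05% and 2.19% of all). The higher signal of ccno and mcidas.S stood beside centriole genes that lay on both sides of 0.

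Most probe sets for genes of the motile axoneme had a lower mean in DEX, with groups that overlapped. Of 70 probe sets 0 passed in either fit, yet 61 had a change below 0, against 49.2% of all probe sets. Of the 70, 34 were lower in 4 of 4 pairs, or 48.6% against 10.3% of all probe sets. With the block 24 were lower at an unadjusted p under 0.05, or 34.3% against 6.11% of all probe sets. Without the block 3 were, or 4.29% against 2.05% of all probe sets. Every DEX array lay below every no_DEX array in 0 of the 70, against 383 of all 32539 probe sets. The sizes were small: the median change was −0.13, and the range ran from −0.45 to 0.29. The upper end was caps.S, whose mean signal of 3.36 lay within the background. Among the 62 probe sets above background the highest change was 0.11, and 56 lay below 0 and 6 above. Leaving out each pair in turn left 60 to 63 of the 70 below 0. The list was chosen with earlier results of these data known. Its probe sets share arrays, and several share a gene or a homeolog, so these counts are a description.

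The widest axonemal differences were in tektins, filament proteins of the doublet microtubules, and in odf3.S, an outer dense fibre gene. For tekt2.L, DEX arrays 1 to 4 gave 5.68, 5.74, 6.42 and 5.72, and no_DEX arrays 6.16, 6.10, 6.78 and 6.33. Replicate 3 was the highest in both groups, and within each pair the DEX array was the lower one. The change was −0.45 (adjusted p = 1.00, and 0.0679 with the block). Values for tekt3.S were −0.43 (0.0959 with the block), for tekt3.L −0.41 (0.0983) and for odf3.S −0.40 (0.124), each lower in 4 of 4 pairs. Intraflagellar transport and ciliary assembly genes, which also serve immotile cilia, had 0 of 46 probe sets that passed and a median of −0.06. Of the 46, 28 lay below 0 (60.9%, against 49.2% of all probe sets) and 18 above. In 4 of 4 pairs 9 were lower (19.6%, against 10.3% of all) and 0 higher (against 10.9%). At an unadjusted p under 0.05 with the block 2 were lower (4.35%, against 6.11% of all) and 3 higher (6.52%, against 6.40%). The widest differences of this list above background were those of intu.S (0.28), bbs12.L (0.21), ift46.S (−0.19) and ift27.L (−0.19).

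**Figure D3:**
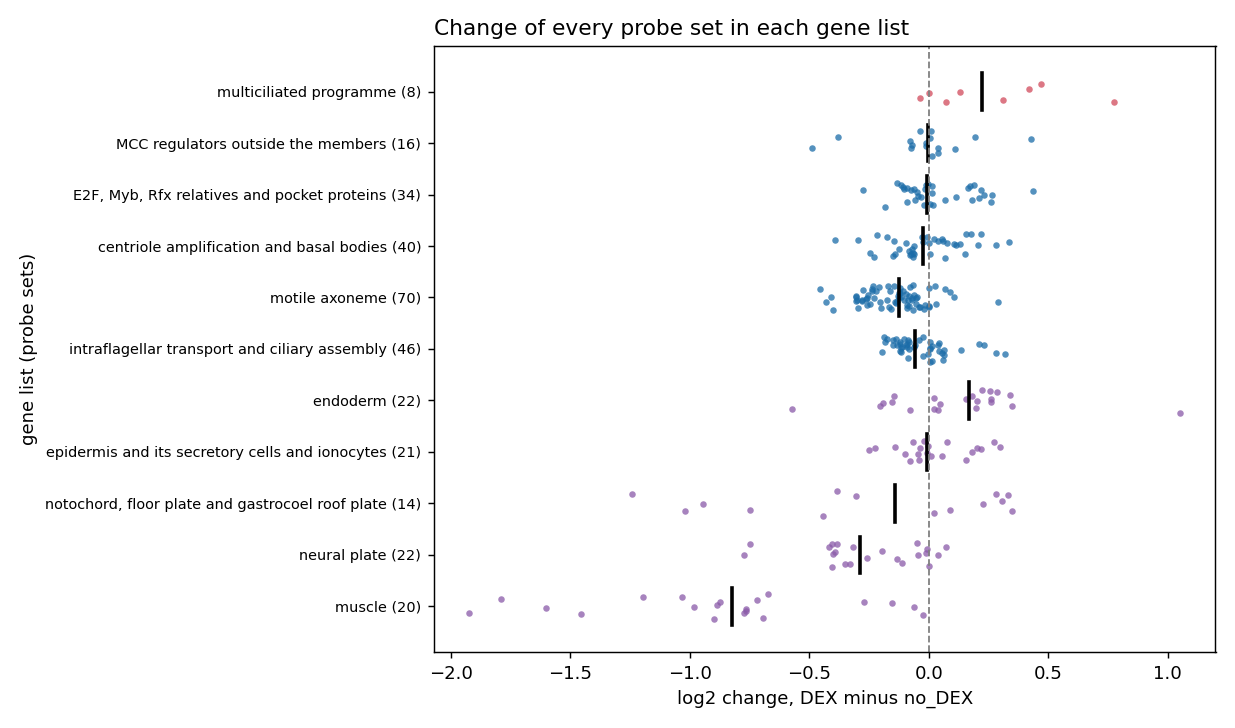
Log2 change of every probe set in the multiciliated programme (red), 5 lists of related genes (blue) and 5 lists of tissue markers (purple), with probe set counts in brackets, a black bar at each list's median and a dashed line at the median of all probe sets. The motile axoneme points lie mostly left of 0 with a median of −0.13, and the epidermal markers are centred near 0.

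Markers of neighbouring tissues also differed between the arrays of a pair. Over 17 neural plate probe sets above background the median signal was 8.94 to 9.63 with dexamethasone and 9.41 to 9.63 without. Their median changes in pairs 1 to 4 were −0.16, −0.44, −0.22 and −0.38, and 16 of 17 lay below 0. At an unadjusted p under 0.05 with the block 11 of the 17 were lower (64.7%, against 7.23% of all probe sets above background). Without the block 4 were (23.5%, against 2.35%). The widest were the midbrain homeologs en2.S (−0.77) and en2.L (−0.75), with pax6.L (−0.42) and sox2.L (−0.41), and none passed. For motile axoneme genes (62 probe sets above background) the medians in pairs 1 to 4 were −0.21, −0.09, −0.14 and −0.22. At an unadjusted p under 0.05 with the block 24 of the 62 were lower (38.7%). Without the block 3 were (4.84%). Both lists had a median below 0 in all pairs, but their sizes differed in order. Pair 2 held the widest neural plate median (−0.44) and the smallest axonemal one (−0.09).

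A further list took in notochord, floor plate and gastrocoel roof plate, and cells of the last carry a motile cilium. Over its 12 probe sets above background the median signal was 6.20 to 6.81 with dexamethasone and 6.33 to 7.17 without. The median changes in pairs 1 to 4 were −0.28, −0.45, −0.64 and 0.10, so pair 4 went the other way. Of the 12, 7 lay below 0 and 5 above, the highest at 0.35. At an unadjusted p under 0.05 with the block 7 were lower (58.3%, against 7.23% of all probe sets above background) and 2 higher (16.7%, against 7.84%). Without the block 4 were lower (33.3%, against 2.35%) and 0 higher. Of the 12, shh.L was called with the block, at a log2 change of −0.94 (limma adjusted p = 0.0156), and not without it (0.637). The widest of the other 11, col9a1.L (−1.24), col2a1.L (−1.02), chrd.1.S (−0.75) and not.L (−0.44), did not pass. For muscle (13 probe sets above background) the median signal was 6.59 to 7.90 with dexamethasone and 5.69 to 9.21 without. It was lower with dexamethasone in pairs 1 to 3 only. At an unadjusted p under 0.05 with the block all 13 were lower (100%, against 7.23% of all probe sets above background). Without the block 1 was (7.69%, against 2.35%). The muscle genes with the widest differences were tnnc2.S (−1.92), myh4.L (−1.79), mylpf.L (−1.60) and tnnc2.L (−1.46), and none passed.

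Endoderm markers had a median change of 0.73 in pair 1 and between −0.08 and 0.09 in the other pairs. Of the 18 probe sets above background, 15 lay above 0 and 3 below. At an unadjusted p under 0.05 with the block 5 were higher (27.8%, against 7.84% of all probe sets above background) and 0 lower. Without the block 1 was higher (against 587 of all 22220 above background) and 0 lower. In pairs 1 to 4 the changes of cer1.S were 2.01, 0.45, 0.77 and 0.97. The anterior endoderm gene cer1.S differed by 1.05 (adjusted p = 0.0959 with the block), foxa1.L by 0.35, sox17a.L by 0.29 and foxa2.L by 0.26. Pair 1, in which the endoderm median differed most, was also the pair in which mcidas.S, ccno.L, ccno.S and rfx2.S differed most. Among pairs 2 to 4 the endoderm median was highest in pair 3 (0.09). There mcidas.S (0.27), ccno.S (0.20) and rfx2.S (0.0003) differed least, while ccno.L differed least in pair 4 (0.25). Among epidermal markers 0 passed. The widest were 2 of 3 probe sets of grhl1.L, which disagreed in sign (0.30 and −0.25, with the brightest at −0.0053), foxi2.S (0.27) and dsp.L (−0.22), and itln1.L stood at −0.10. The part of any of these tissues in the members' values was not tested. In dissected tissue, fewer cells of a type and less RNA per cell cannot be told apart.

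**Figure D4:**
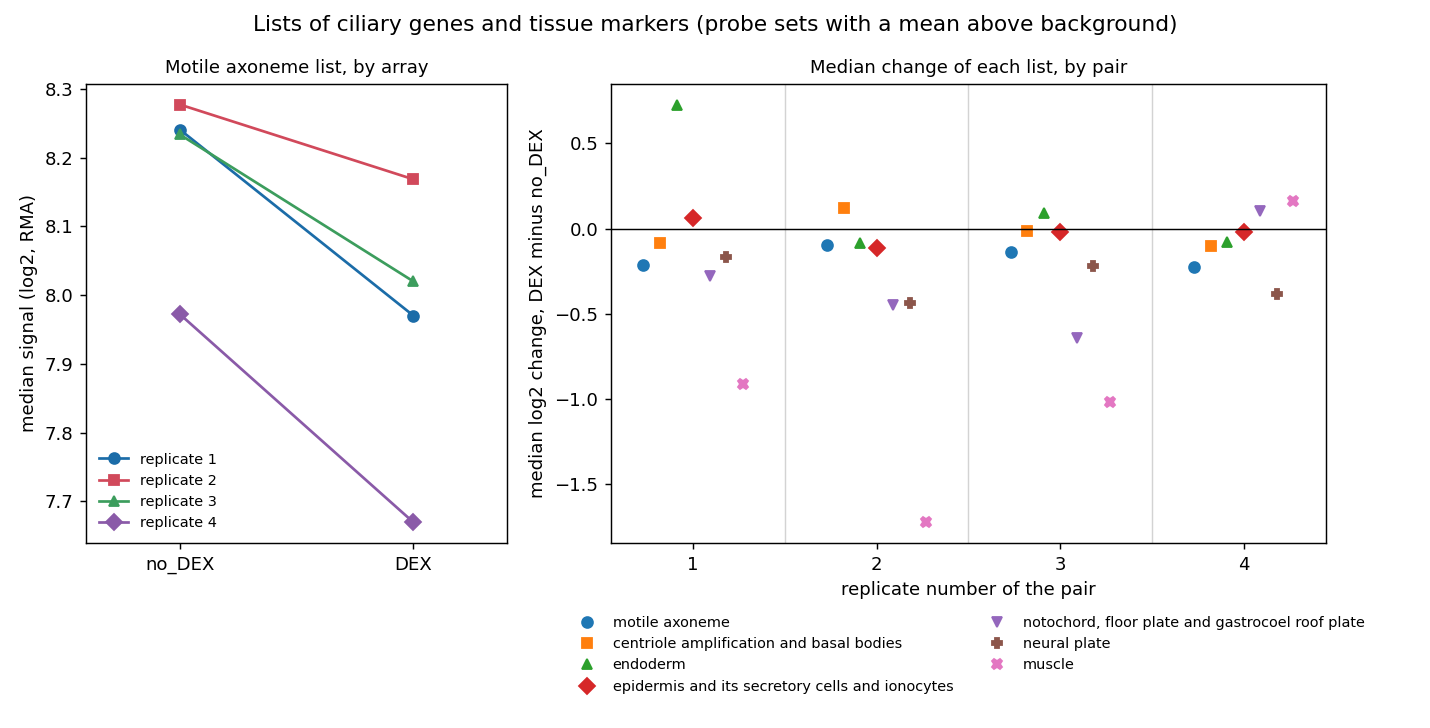
Left, median log2 signal of the 62 motile axoneme probe sets above background on each array, lines joining arrays of one replicate number. Right, median log2 change in each pair for 2 ciliary and 5 marker lists: motile axoneme and neural plate lie below 0 in all pairs, muscle in pairs 1 to 3, and the endoderm median is highest in pair 1 at 0.73.

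The genes whose signal followed mcidas.S and ccno.L most closely were taken by Pearson's r over the 8 arrays, from 8924 other named genes with a probe set above background. Both treatment and replicate number enter such an r, which is a description of these arrays. For mcidas.S they were twsg1.L (0.97), which encodes a BMP-binding protein, gpm6b.L (0.95), a membrane proteolipid gene, ripply2.2.S (0.94), a corepressor gene of somite formation, ier5.L (0.94) and the ubiquitin ligase gene siah1.L (0.94). For ccno.L they were the prostaglandin dehydrogenase gene hpgd.L (0.97), gpm6b.L (0.97), the mesendoderm homeobox gene bix1.3.L (0.94), e4f1.S (0.94) and the homeobox gene tlx1.L (0.94). Thus gpm6b.L stood in both, with a change of 0.30 that did not pass (adjusted p = 0.197 with the block). Of the named genes only twsg1.L passed with the block, at 1.14 (adjusted p = 0.0287).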

How the data were processed

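The values were 8 Affymetrix arrays of Xenopus laevis RNA, deposited by the authors as log2 expression made with RMA, per the submitters' processing notes (its version is not given in the sources used here), a method that corrects background, equalizes the arrays' quantiles and summarises each probe set. RMA understates differences of dim probe sets. The number of arrays limits the precision. No scaling was added. After 96 control probe sets were left out, 32539 were tested by limma 3.58.1 under R 4.3.3, using lmFit, eBayes and two-sided p-values adjusted over all of them after Benjamini and Hochberg. The fit was tested on simulated data. Intervals are limma's 95% intervals. Replicate numbers were taken to pair the arrays, because deviations from group means correlated at 0.63, 0.78, 0.77 and 0.69 between arrays of the same number and at most 0.20 otherwise. Symbols came from the platform annotation, which gave 1 symbol for 15495 probe sets, and all 8 members had the same symbol in the RefSeq gene table. Members and gene lists were chosen with earlier results of these data known. Named genes were all members, in each list those called or else the 4 widest changes above background, and the 5 genes most correlated with mcidas.S and with ccno.L. Alternatives were another block, centring, a filter on low values, a variance trend and leaving out arrays.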

Additional observations from a re-analysis of the deposited data

Results flagged for a closer look

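In 98 groups of 4 arrays (the 8 members and 41 named list probe sets, each in both groups), 7 held an array far from the other 3. Chance gives about 1 in 20 for independent groups, but these share arrays, so that rate is only a rough guide. None of the 7 was in a member. In DEX, tekt2.L in replicate 3 stood at 6.42, the others at 5.68 to 5.74. In no_DEX replicate 2, tekt3.S stood at 8.77 (others 8.31 to 8.35), ccne2.S at 7.28 (8.47 to 8.70) and a grhl1.L probe set at 5.31 (4.78 to 4.82). In no_DEX replicate 1, cby1.S stood at 7.48 (6.35 to 6.50). In no_DEX replicate 4 the muscle genes myh4.L, at 5.19 (9.53 to 10.36), and mylpf.L, at 5.56 (9.43 to 10.19), were low.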

How the results depend on the processing

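With the replicate block 180 probe sets were called in place of 2. The block brought 169 with arrays centred, 150 with the filter on low values and 253 with a variance trend, and a random block gave 128. Leaving out 1 array left 0 to 3 calls, and leaving out pair 1, 2, 3 or 4 with the block left 34, 4, 26 and 120. The count of called members was 0 throughout, except 1 (mcidas.S, adjusted p = 0.0400) with the trend and the block. In the 9 fits with a block the adjusted p of mcidas.S ran from 0.0400 to 0.269. Called probe sets of the 5 ciliary lists stayed at 0. Of 158 member changes under alternatives 148 kept their sign and their side of the threshold and 9 changed sign: foxj1.L was −0.0037 with arrays centred, with or without the block, and −0.041 to 0.062 with arrays or pairs left out (−0.028 without pair 1 and −0.0010 without pair 4), and without pair 1 e2f4.S was 0.016 and myb.S −0.0064. Of 820 changes of named list probe sets 12 became calls and 0 changed sign. Chosen after seeing the data, leaving out each pair gave 6 to 7 members above 0 and 60 to 63 of 70 axonemal probe sets below 0. With limma's usual prior the replicate block changed no member's call, and with the trend and robust estimation it moved mcidas.S from an adjusted p of 0.556 to 0.0400. For myb.S the signal did not clear the background.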
